A study of Mus musculus with 16 samples.

Results

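The genes described here code for receptors and lectins of innate immunity, measured as transcripts in whole mouse lung after allergen exposure. They were taken by symbol: Toll-like (Tlr), NOD-like (Nlr), C-type lectin (Clec), IgG and IgE Fc receptor (Fcgr, Fcer), paired immunoglobulin-like (Lilr, Pir, Pilr), SIRP, Siglec, killer cell lectin-like (Klr), TREM, macrophage scavenger and mannose receptor (Msr1, Marco, Mrc) and galectin (Lgals) genes. Of 113 such genes that a probe set of the array names alone, 64 had values that could be assigned to them, out of 9866 genes in all. Of these 64, 47 exceeded log2 4, taken as the background, on at least 4 of the 16 arrays and were tested among 7276 genes. Gene names rest on moving probe set labels to other rows of the deposited table, and 44 of the 64 genes lie in a stretch of labels moved by 47 rows. The symbol rule also takes in genes that are not cell-surface receptors, such as the galectins, which are secreted lectins, the secreted factor Clec11a and the signalling chain Fcer1g.

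The 16 Affymetrix arrays formed 4 groups of 4. They were BALB-RAG mice exposed to OVA (ovalbumin, the egg-white allergen of this model), BALB-RAG mice given phosphate-buffered saline (PBS), BALB/c mice exposed to OVA and BALB/c mice given PBS. Lungs were taken on day 22, 1 day after the last exposure, and each array held 1 sample of total RNA. The titles do not say which Rag gene the BALB-RAG line lacks. A mouse without a working Rag gene cannot assemble antigen receptor genes and has no mature T or B cells, while its natural killer (NK) and myeloid cells remain. Ages, sexes and the route of exposure are not given in the sources used here. Whether replicates are separate animals is not stated in the labels, and p-values then reflect no more than the scatter of these samples, technical or not.

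Innate receptors recognise microbial or altered host molecules without gene rearrangement. Many of those on macrophages, dendritic cells and granulocytes signal through short tyrosine motifs that recruit the kinase Syk (activating, often through the adaptor Fcer1g) or phosphatases (inhibitory). Fc receptors bind the constant part of antibodies and so couple antibody to these same pathways. In the lung these genes are known chiefly from macrophages, dendritic cells, eosinophils and NK cells. In RNA of whole tissue, fewer cells of a type and less RNA per cell cannot be told apart.

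Some libraries stood apart from their titles or from their group. In the 4 BALB-RAG PBS libraries the mean log2 intensity of 6 plasma cell genes was 7.35 to 8.39, against 6.86 to 7.77 in BALB/c PBS libraries. Among BALB-RAG OVA libraries, replicate 2 had 8.61 on this measure and the other 3 had 5.97 to 6.11. The mean of 13 T cell genes was 4.22 to 4.63 in BALB-RAG PBS and 4.22 to 4.61 in BALB/c PBS libraries. In BALB-RAG OVA it was 4.95 in replicate 2 and 3.41 to 3.67 in the others. For 12 B cell genes it was 4.83 to 5.19 in BALB-RAG PBS and 5.71 to 6.16 in BALB/c PBS libraries. BALB-RAG OVA replicate 2 had 5.85 and the others 3.79 to 3.87. For 6 proliferation genes it was 5.78 to 6.13 in BALB-RAG PBS and 4.72 to 5.29 in BALB/c PBS libraries. Rag2 was under log2 4 on every array apart from BALB-RAG PBS replicate 1 (4.2), and Rag1 was not analysed here, so neither gene checks the genotype. The groups are called by their titles throughout, and every statement on BALB-RAG refers to libraries so titled. Replicates 1 and 2 also differed from replicates 3 and 4 across all groups, and values within these pairs of replicates are given where they change a result. Median intensity lay between 18.2 and 20.5 on all arrays, and the number of arrays limits the precision.

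The 5 largest rises after OVA in BALB/c lungs were those of Clec4a2, Trem2, Clec7a, Fcgr2b and Fcer2a, and the sequences around their transcription starts are shown for that reason. Each window of 300 bases lies mostly before a start and runs past it, as given in RefSeq on GRCm38.p6. Both strands were searched for 3 motifs. These were GAGGAAGT (bound by PU.1, a myeloid transcription factor), the STAT6 motif (TTC and GAA with 4 bases between them) and TTGCNNAA (C/EBP). Matches are in capitals, and no match printed here overlaps another.
Clec4a2, chr6:123122440-123122739, plus strand: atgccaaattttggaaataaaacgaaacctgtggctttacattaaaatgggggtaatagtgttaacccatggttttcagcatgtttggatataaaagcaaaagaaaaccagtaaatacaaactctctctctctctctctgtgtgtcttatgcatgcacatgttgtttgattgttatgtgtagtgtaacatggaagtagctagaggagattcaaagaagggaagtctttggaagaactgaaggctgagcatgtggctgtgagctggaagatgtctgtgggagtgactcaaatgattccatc
Trem2, chr17:48346151-48346450, plus strand: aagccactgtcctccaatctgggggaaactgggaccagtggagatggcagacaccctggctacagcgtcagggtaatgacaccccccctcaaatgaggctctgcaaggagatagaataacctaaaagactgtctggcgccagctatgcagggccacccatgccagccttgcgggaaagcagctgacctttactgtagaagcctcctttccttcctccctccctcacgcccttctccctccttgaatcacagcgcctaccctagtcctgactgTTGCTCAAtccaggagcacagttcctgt
Clec7a, chr6:129472730-129473029, minus strand: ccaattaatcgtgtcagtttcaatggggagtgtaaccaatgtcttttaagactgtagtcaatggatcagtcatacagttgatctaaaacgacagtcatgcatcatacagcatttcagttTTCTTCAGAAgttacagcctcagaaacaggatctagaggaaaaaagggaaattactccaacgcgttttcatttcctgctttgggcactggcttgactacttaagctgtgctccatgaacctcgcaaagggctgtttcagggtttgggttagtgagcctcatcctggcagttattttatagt
Fcgr2b, chr1:170976022-170976321, minus strand: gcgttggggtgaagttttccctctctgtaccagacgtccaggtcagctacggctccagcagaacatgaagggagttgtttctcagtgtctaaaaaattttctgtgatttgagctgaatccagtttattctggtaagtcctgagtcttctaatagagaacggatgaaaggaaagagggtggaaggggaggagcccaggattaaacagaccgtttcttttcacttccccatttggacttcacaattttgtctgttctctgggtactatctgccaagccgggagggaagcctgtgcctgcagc
Fcer2a, chr8:3690812-3691111, minus strand: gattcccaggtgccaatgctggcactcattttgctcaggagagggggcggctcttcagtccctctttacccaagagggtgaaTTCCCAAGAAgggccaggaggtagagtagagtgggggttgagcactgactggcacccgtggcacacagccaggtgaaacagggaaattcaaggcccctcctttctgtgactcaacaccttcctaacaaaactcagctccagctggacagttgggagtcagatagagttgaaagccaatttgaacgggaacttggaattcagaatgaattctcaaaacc
The capitals mark the C/EBP motif in Trem2 and the STAT6 motif in Clec7a and Fcer2a, and the windows of Clec4a2 and Fcgr2b hold none of the 3 motifs. Fcer2a has 3 annotated starts and Clec7a has 2; the Fcer2a window printed is the one of its 3 with a match.

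A promoter was given for 37 of the 47 tested genes and for 13 of the 19 that rose in BALB/c. Of those 13, 4 held the STAT6 motif in at least 1 promoter, 1 the PU.1 motif and 1 the C/EBP motif. Over all 27025 genes with promoters the shares were 8.01% for the STAT6 motif, 3.69% for PU.1 and 12.2% for C/EBP. A match is a run of letters and not a site shown to be bound.

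In BALB/c lungs, the receptor genes higher after OVA included the lectin genes Clec7a and Clec4a2, the Fc receptor genes Fcgr2b, Fcgr1 and Fcer2a, and Trem2 and Pirb, though not every member of these families passed. Of the 47 tested receptor genes, 19 rose and 1 fell at an adjusted p under 0.05 (limma, Benjamini-Hochberg over all genes tested). Among all 7276 genes, 8.73% rose and 6.78% fell. The median log2 difference of the 47 genes was 0.78, and that of all genes tested was 0.00. Without overlap between the groups, 34.0% of the 47 genes were higher after OVA, against 10.4% of all genes. The number that passed was 10 when genes had to exceed log2 6 in place of log2 4. Fewer genes were tested then, and no gene still tested lost its call.

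**Figure D1:**
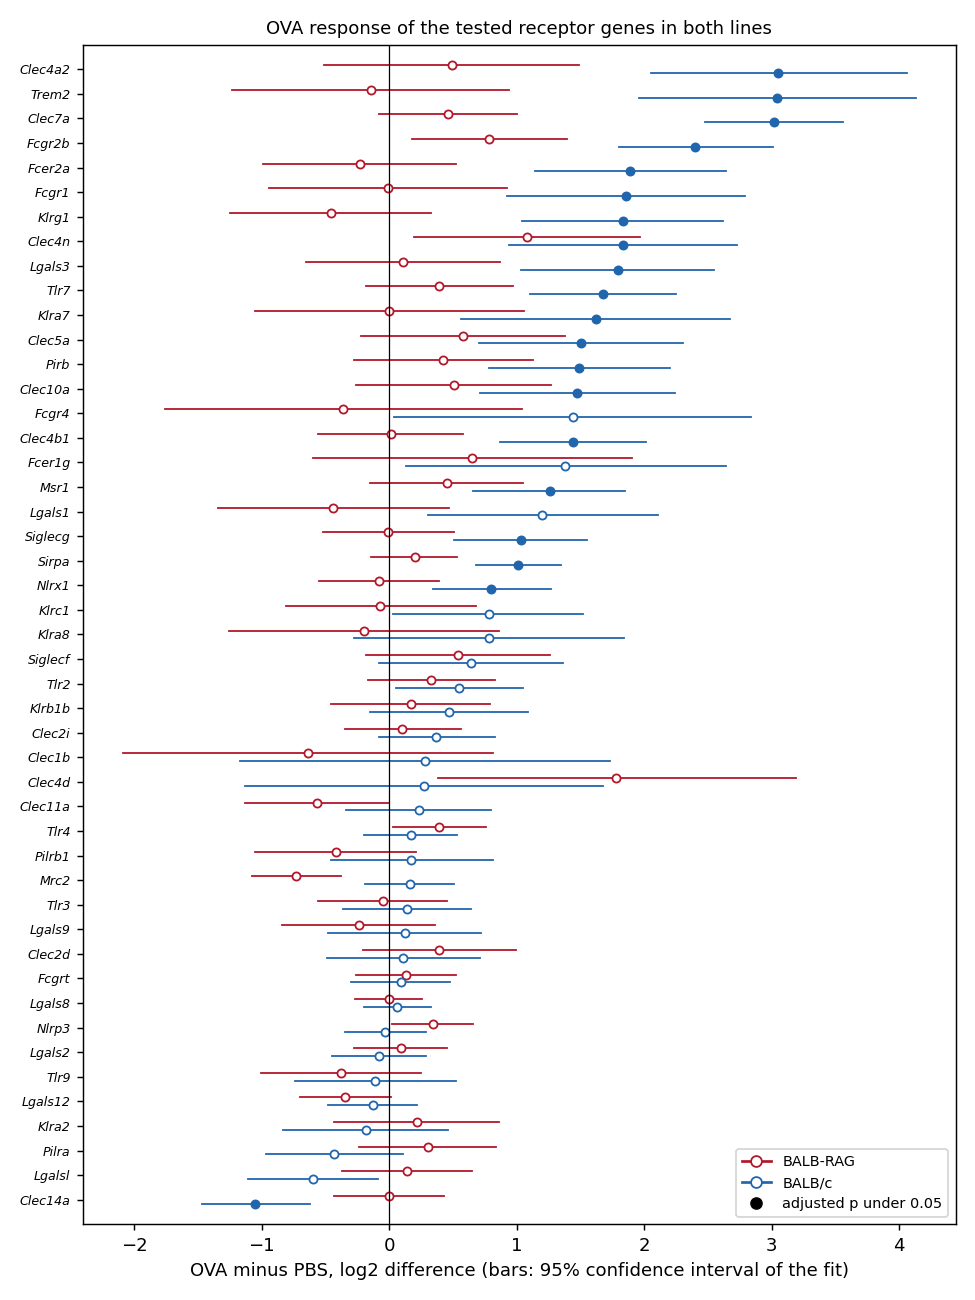
Differences between OVA and PBS lungs (log2 intensity, horizontal axis) for the 47 tested genes, in BALB-RAG (red) and BALB/c (blue), with 95% confidence intervals; filled points passed the test. In BALB/c 20 points are filled, from 3.05 for Clec4a2 down to -1.05 for Clec14a, and in BALB-RAG none is filled.

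The C-type lectins held the largest share of these rises, with 6 of 12 tested members higher and 1 lower. Clec7a, known as Dectin-1, is the phagocyte receptor for fungal beta-glucan. Its log2 intensity was 12.05, 12.04, 11.62 and 11.3 in BALB/c OVA lungs, against 9.32, 9.2, 8.33 and 8.07 in BALB/c PBS lungs. The groups did not overlap, and the difference was 3.02 ± 0.25 (SE, n = 4 each; 8.12-fold, adjusted p = 1.93e-06), the smallest adjusted p among the 47 genes.

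Clec4a2, an inhibitory lectin of dendritic cells and macrophages (DCIR), read 8.69, 8.99, 7.55 and 7.24 in BALB/c OVA lungs, against 5.48, 6.26, 4.21 and 4.3 in BALB/c PBS lungs. It differed by 3.05 ± 0.47 on the log2 scale (adjusted p = 0.000404) without overlap. A second Clec4a2 probe set, above log2 4 on 3 arrays, had a difference of 0.79. Clec4n, known as Dectin-2 and a receptor for fungal mannan that pairs with Fcer1g, read 9.21, 8.81, 7.98 and 8.01 after OVA and 7.26, 6.96, 6.72 and 5.73 after PBS in BALB/c (1.83 ± 0.42, adjusted p = 0.00698). Its other probe set had a difference of 1.62.

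The remaining risers of this family were lower in signal. Clec4b1, a dendritic cell lectin encoded beside Clec4a2, differed by 1.44 ± 0.27 (adjusted p = 0.00166). Clec10a, a galactose-binding lectin of macrophages and dendritic cells, differed by 1.47 ± 0.36 (adjusted p = 0.0108). Clec5a, which signals through the adaptor DAP12, read 5.97, 5.91, 5.27 and 3.92 in BALB/c OVA lungs, against 3.9, 4.25, 3.4 and 3.53 in BALB/c PBS lungs. OVA replicate 4 lay below 1 PBS array, and the difference was 1.5 ± 0.37 (adjusted p = 0.0122).

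Clec14a was the only tested receptor gene that fell in BALB/c at the threshold. It is an endothelial lectin-like protein, not a receptor of immune cells. Its log2 intensity was 8.82, 8.61, 9.09 and 9.63 in OVA lungs, against 9.96, 10.11, 10.23 and 10.04 in PBS lungs (-1.05 ± 0.20, adjusted p = 0.00212), and a second probe set had -0.97. Of 9 endothelial marker genes, 4 fell and none rose in the same comparison (median -0.54), and the part of endothelial RNA in the result was not tested.

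The other C-type lectins did not pass in BALB/c. Clec4d, a phagocyte lectin encoded next to Clec4n, read 7.76, 7.92, 7.56 and 5.99 in BALB/c OVA lungs, against 7.87, 8.8, 5.56 and 5.88 in BALB/c PBS lungs (0.27 ± 0.66, adjusted p = 0.853). Its groups overlapped, and in both groups replicate 4 lay well under replicates 1 and 2. The platelet receptor Clec1b differed by 0.28 ± 0.68, and Clec2d and Clec2i, ligands of Klr receptors, by 0.11 ± 0.28 and 0.37 ± 0.22. Clec11a differed by 0.23 ± 0.27.

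**Figure D2:**
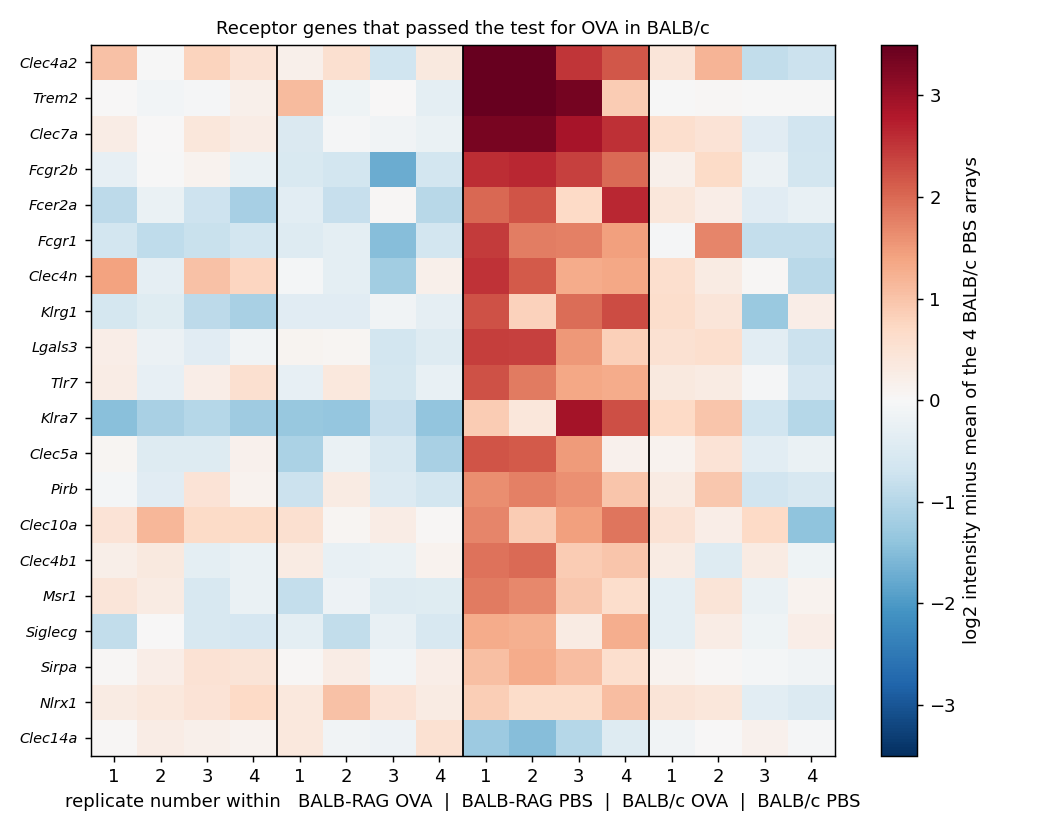
The 20 receptor genes that passed the test for OVA in BALB/c (rows, largest rise at the top), on each of the 16 arrays (columns, in the 4 groups); colour gives log2 intensity minus the mean of the 4 BALB/c PBS arrays. The 4 BALB/c OVA columns carry the strongest red, and Clec14a in the bottom row is blue there.

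Among IgG Fc receptors, 2 of 4 tested members rose in BALB/c. Fcgr2b, the inhibitory IgG receptor, read 10.52, 10.57, 10.32 and 9.92 in OVA lungs, against 8.1, 8.61, 7.72 and 7.29 in PBS lungs. That difference was 2.40 ± 0.29 (5.29-fold, adjusted p = 4.85e-05) without overlap, and a second probe set had 1.84. Fcgr1, the high-affinity IgG receptor, read 8.04, 7.38, 7.35 and 7.03 in OVA lungs, against 5.56, 7.3, 4.75 and 4.76 in PBS lungs (1.86 ± 0.44, adjusted p = 0.00857). PBS replicate 2 lay inside the range of the OVA arrays, while the other 3 PBS arrays lay below it. Fcgr4, an activating IgG receptor of myeloid cells, had overlapping groups and did not pass (1.44 ± 0.66, adjusted p = 0.166). Fcgrt, the neonatal Fc receptor that recycles IgG, differed by 0.09 ± 0.18.

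The low-affinity IgE receptor Fcer2a (CD23), known from B cells, rose in BALB/c. It read 6.38, 6.59, 5.08 and 7.02 in OVA lungs, against 4.79, 4.6, 3.99 and 4.13 in PBS lungs (1.89 ± 0.35, adjusted p = 0.00172) without overlap. The mean of 12 B cell marker genes was 6.62 to 7.65 in BALB/c OVA libraries and 5.71 to 6.16 in BALB/c PBS libraries, with 4 of 12 genes passing as higher; its part in the Fcer2a result was not tested. Fcer1g, the chain shared by activating Fc receptors and several lectins, read 10.11, 10.12, 8.9 and 8.75 after OVA and 8.89, 9.21, 7.39 and 6.85 after PBS. These groups overlapped, with PBS replicates 1 and 2 at about the level of OVA replicates 3 and 4, and the gene did not pass (1.38 ± 0.59, adjusted p = 0.135). The Fcer1g difference was 1.06 between replicates 1 and 2 of the groups and 1.71 between replicates 3 and 4. Fcer1a, the binding chain of the high-affinity IgE receptor, stayed under log2 4 on all arrays and was not tested.

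Of the 6 tested paired immunoglobulin-like, SIRP and Siglec genes, 3 rose in BALB/c, all coding for inhibitory receptors. Pirb, which binds MHC class I molecules, read 7.69, 7.84, 7.68 and 7.04 in BALB/c OVA lungs, against 6.35, 7.02, 5.41 and 5.5 in BALB/c PBS lungs (1.49 ± 0.33, adjusted p = 0.00599). Sirpa, which binds the ubiquitous surface protein CD47 and restrains phagocytosis, differed by 1.01 ± 0.16 (adjusted p = 0.000436), and its second probe set by 0.77. Siglecg, an inhibitory receptor for sialic acid best known from B cells, differed by 1.03 ± 0.24 (adjusted p = 0.00857), with OVA replicate 3 at 4.95 and the other 3 OVA arrays at 5.91 to 5.97.

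Siglecf, a surface marker of eosinophils and alveolar macrophages encoded next to Siglecg, did not pass. Its levels were 7.88, 8.46, 6.9 and 6.37 in BALB/c OVA lungs, against 7.06, 6.79, 6.32 and 6.89 in BALB/c PBS lungs (0.64 ± 0.34, adjusted p = 0.246). The difference was 1.24 between replicates 1 and 2 of the groups and 0.03 between replicates 3 and 4. On the same arrays the eosinophil ribonuclease gene Rnase2a rose by 6.95 ± 0.43 (adjusted p = 6.95e-08, at least 89.4-fold). It was the 1 of 3 tested eosinophil genes that passed: Il5ra differed by 0.51 ± 0.20 (adjusted p = 0.109) and Ltc4s by -0.69 ± 0.57 (adjusted p = 0.506). The paired receptors Pilra, inhibitory, and Pilrb1, activating, lie side by side and had differences of -0.43 ± 0.25 and 0.17 ± 0.30.

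Trem2 is a receptor of macrophages and microglia for lipids and lipoproteins that signals through DAP12. It read 7.83, 7.45, 7.03 and 4.57 in BALB/c OVA lungs, and all 4 BALB/c PBS arrays were under log2 4 (3.66 to 3.72). The rise was therefore at least 6.60-fold (fitted difference 3.04 ± 0.51, adjusted p = 0.000773), and OVA replicate 4 was far under the other 3. A second Trem2 probe set, above log2 4 on 4 arrays, had a difference of -0.23, so the probe sets disagree.

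Msr1, the class A scavenger receptor of macrophages, rose by 1.26 ± 0.28 (adjusted p = 0.00621). Its 2 other probe sets, which were dimmer, had differences of 2.27 and 0.31. Mrc2, a collagen-binding receptor of fibroblasts from the mannose receptor family, differed by 0.16 ± 0.17.

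**Figure D3:**
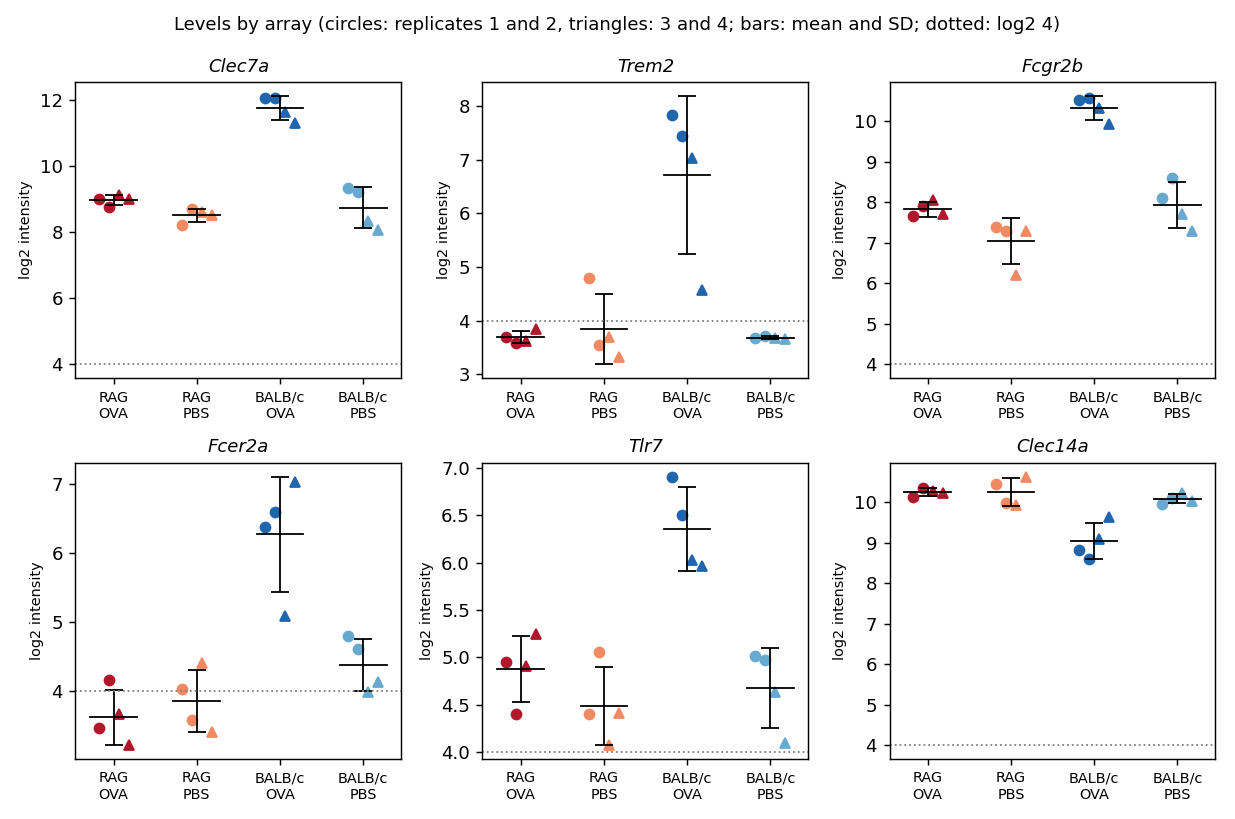
Log2 intensity (vertical axes) of 6 receptor genes on every array, by group; circles are replicates 1 and 2, triangles replicates 3 and 4, bars the mean and SD, and the dotted line log2 4. For Clec7a, Trem2, Fcgr2b, Fcer2a and Tlr7 every BALB/c OVA point lies above every BALB/c PBS point, and for Clec14a every one lies below.

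Of the 5 Toll-like receptors tested, only Tlr7, the endosomal receptor for single-stranded RNA, passed in BALB/c. It read 6.91, 6.51, 6.03 and 5.97 in OVA lungs, against 5.01, 4.97, 4.63 and 4.1 in PBS lungs (1.68 ± 0.27, adjusted p = 0.000551) without overlap. Tlr2, which senses lipoproteins, differed by 0.55 ± 0.24 (adjusted p = 0.14). Tlr3, for double-stranded RNA, differed by 0.14 ± 0.24, Tlr4, for lipopolysaccharide, by 0.17 ± 0.17, and Tlr9, for CpG DNA, by -0.11 ± 0.30.

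Nlrx1, a mitochondrial NOD-like protein, rose by 0.80 ± 0.22 (adjusted p = 0.0204). The call was lost without BALB/c OVA replicate 1 or 4 or BALB/c PBS replicate 3 or 4, with adjusted p between 0.0528 and 0.0752. Nlrp3, the inflammasome sensor, lay between 3.98 and 4.28 on all BALB/c arrays, close to background.

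Lgals3, the galectin of activated macrophages, was the only one of 7 tested galectins that passed in BALB/c. It read 13.26, 13.23, 12.36 and 11.68 in OVA lungs, against 11.37, 11.43, 10.48 and 10.08 in PBS lungs (1.79 ± 0.36, adjusted p = 0.00283). Lgals1 differed by 1.20 ± 0.43 with overlapping groups (adjusted p = 0.07). The Lgals1 difference was 1.0 between replicates 1 and 2 of the groups and 1.41 between replicates 3 and 4. Differences of Lgals2, Lgals8, Lgals9 and Lgals12 lay between -0.13 and 0.12, and that of the galectin-related Lgalsl was -0.60 ± 0.24 (adjusted p = 0.109). Lgals2 (3.57 to 4.2 over all arrays) and Lgals12 (3.41 to 4.56) lay near background, so their small differences say little. Other probe sets of Lgals2 and Lgals12 had differences of -0.40 and -0.12.

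Among NK receptors, 2 of 6 tested Klr genes rose in BALB/c. Klrg1, a cadherin-binding inhibitory receptor of mature NK cells, effector T cells and type 2 innate lymphoid cells, read 6.39, 4.99, 6.13 and 6.46 in OVA lungs, against 4.78, 4.6, 2.88 and 4.4 in PBS lungs. Its groups did not overlap (1.83 ± 0.37, adjusted p = 0.00321). Klra7, an Ly49 receptor for MHC class I, read 4.66, 4.17, 6.68 and 6.02 after OVA and 4.48, 4.75, 3.07 and 2.76 after PBS (1.62 ± 0.50, adjusted p = 0.0374).

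The Klra7 result came from part of the arrays. The difference was -0.20 between replicates 1 and 2 and 3.44 between replicates 3 and 4. Without BALB/c OVA replicate 3 or 4, or BALB/c PBS replicate 3 or 4, it did not pass, with adjusted p between 0.0979 and 0.127. Klra8 had the same split, with -0.91 and 2.47, and did not pass (0.78 ± 0.50, adjusted p = 0.356). Klrc1 (NKG2A), an inhibitory receptor for non-classical MHC class I, had -0.30 and 1.86 (overall 0.78 ± 0.35, adjusted p = 0.158). The Ly49 genes are near-identical copies whose probe sets may detect several members, so their symbols are uncertain. Klrb1b, which binds the Clec2d product, differed by 0.47 ± 0.29, and Klra2 by -0.18 ± 0.30. The other 18 of the 19 risers had positive differences both between replicates 1 and 2 and between replicates 3 and 4.

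**Figure D4:**
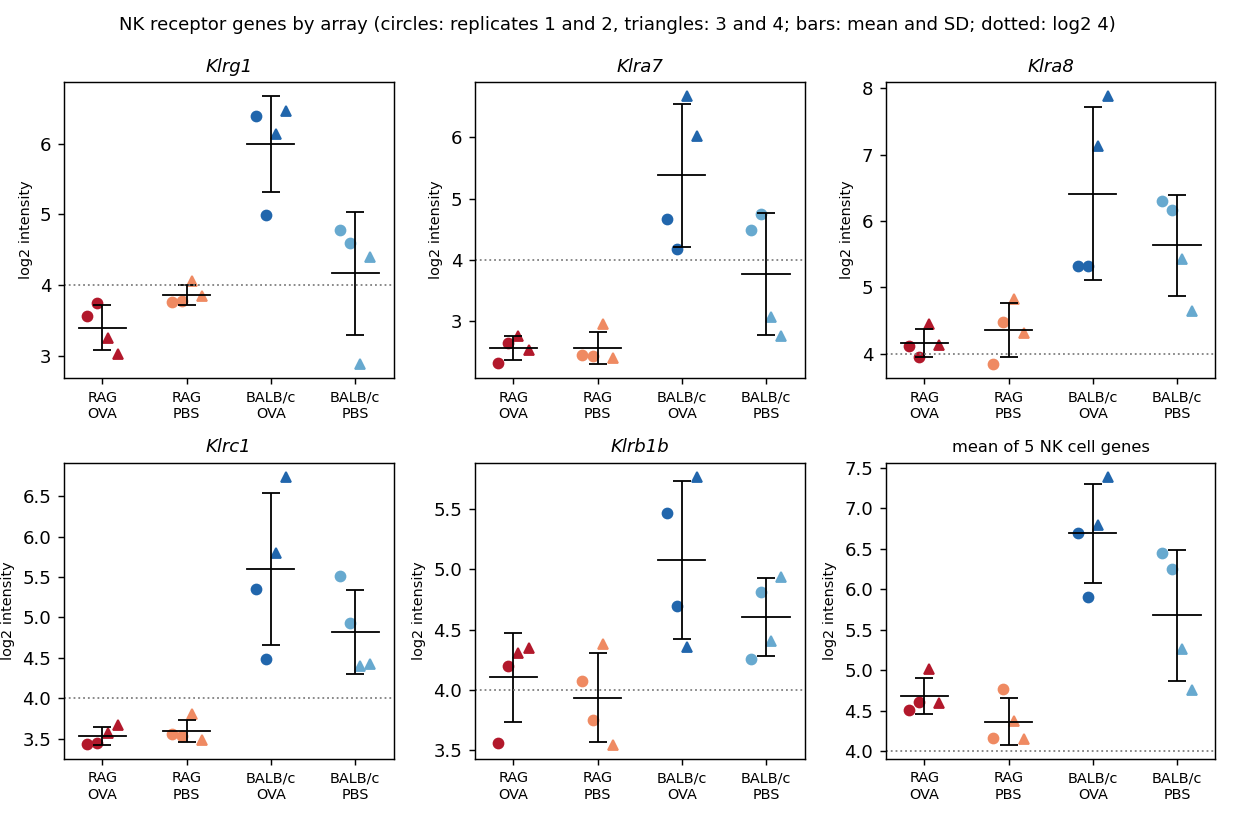
Log2 intensity of 5 NK receptor genes and the mean of 5 further NK cell genes on every array, by group; circles are replicates 1 and 2, triangles replicates 3 and 4, bars the mean and SD, and the dotted line log2 4. Klra7 and Klrc1 stay under log2 4 on all 8 BALB-RAG arrays, and the Klra7 and Klra8 circles of BALB/c OVA lie within or below those of BALB/c PBS.

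In BALB-RAG lungs, none of the 47 receptor genes passed the test between OVA and PBS (limma, smallest adjusted p = 0.0952, for Mrc2). Among all genes 0.165% passed, so that few genes of any kind did. At an unadjusted p under 0.05 there were 7 of the 47 genes (14.9%), against 7.72% of all genes. With a term for replicates 1 and 2 against 3 and 4, 1 receptor gene passed, with a lower level after OVA. The median difference of the 47 genes was 0.10, and that of all genes 0.02.

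The arrays of the BALB-RAG groups did not overlap for 6 genes. Clec7a, Fcgr2b, Nlrp3 and Siglecf were higher on all OVA arrays (8.51% of the 47 genes, against 2.67% of all genes), and Klrg1 and Mrc2 were lower (4.26%, against 1.95%). Several of these groups were barely apart. The lowest OVA and highest PBS values were 4.2 and 4.17 for Nlrp3, near background, and 6.03 and 6.0 for Siglecf. For Klrg1 the highest OVA value was 3.75 and the lowest PBS value 3.76, both under log2 4. Clec7a read 8.99, 8.75, 9.12 and 9.0 in BALB-RAG OVA lungs, against 8.22, 8.69, 8.6 and 8.5 in BALB-RAG PBS lungs (0.46 ± 0.25, adjusted p = 0.748). Fcgr2b read 7.65, 7.92, 8.05 and 7.7, against 7.4, 7.29, 6.2 and 7.3 in the PBS libraries (0.78 ± 0.29, adjusted p = 0.432). Both shifts were small beside those in BALB/c.

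Mrc2 read 7.2, 7.02, 7.56 and 7.7 in BALB-RAG OVA lungs, against 7.92, 8.25, 8.33 and 7.91 in BALB-RAG PBS lungs (-0.73 ± 0.17). Clec4d had the largest difference in this line: it read 8.1, 7.09, 8.1 and 7.62 after OVA and 5.04, 7.15, 6.27 and 5.32 after PBS. PBS replicate 2 reached the OVA range, and the gene did not pass (1.78 ± 0.66, adjusted p = 0.439). The mean of 7 neutrophil genes was 7.07 to 7.55 in BALB-RAG OVA libraries and 5.66 to 8.33 in BALB-RAG PBS libraries, with PBS replicate 2 again the highest; its part was not tested. Clec4n, beside Clec4d, differed by 1.08 ± 0.42 (adjusted p = 0.499).

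The OVA response was then set directly between lines, as the BALB-RAG difference minus the BALB/c difference. Of the 47 genes, 10 had a lower response in BALB-RAG and 1 a higher one, against 4.63% and 3.86% of all genes. The call held without any one of the 16 arrays for Trem2 (-3.19 ± 0.72, adjusted p = 0.0124), Clec7a (-2.56 ± 0.36, adjusted p = 0.000416), Klrg1 (-2.29 ± 0.53, adjusted p = 0.013) and Fcer2a (-2.13 ± 0.50, adjusted p = 0.0149). Trem2, Klrg1 and Fcer2a lay under or near log2 4 in some groups, so their sizes depend on values at background. With values under log2 4 set to 4, the gap was -2.92 for Trem2, -1.57 for Klrg1 and -1.96 for Fcer2a, and all 3 passed. Klrg1 read 3.56, 3.75, 3.26 and 3.03 in BALB-RAG OVA lungs and 3.76, 3.78, 4.06 and 3.85 in BALB-RAG PBS lungs, nearly all under log2 4. Fcer2a read 3.46, 4.15, 3.66 and 3.21, against 4.02, 3.58, 4.41 and 3.41 in the PBS libraries. Both genes were thus near background in BALB-RAG with either exposure.

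The other 7 calls did not all hold when arrays were left out 1 at a time, and most were lost without any 1 of several arrays. Fcgr2b (-1.62 ± 0.40, adjusted p = 0.0214) had an adjusted p of 0.0503 without BALB/c OVA replicate 2. Clec4a2 (-2.56 ± 0.67, adjusted p = 0.0262) was lost without BALB-RAG OVA replicate 2, BALB-RAG PBS replicate 2, BALB/c OVA replicate 1 or 2, or BALB/c PBS replicate 3 or 4 (adjusted p 0.0501 to 0.0609). Clec4b1 (-1.43 ± 0.38, adjusted p = 0.0288) was lost without BALB-RAG OVA replicate 3 or 4, BALB-RAG PBS replicate 1 or 4, BALB/c OVA replicate 1 or 2, or BALB/c PBS replicate 2 or 4 (0.0501 to 0.0659). All of these remained negative.

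Mrc2 (-0.89 ± 0.23, adjusted p = 0.027) was lost without BALB-RAG OVA replicate 1, BALB-RAG PBS replicate 2 or 3, BALB/c OVA replicate 1 or 2, or BALB/c PBS replicate 3 (0.051 to 0.063). Sirpa (-0.82 ± 0.22, adjusted p = 0.0342) was lost without BALB-RAG OVA replicate 1 or 2, BALB-RAG PBS replicate 2 or 4, BALB/c OVA replicate 1, 2 or 3, or BALB/c PBS replicate 3 or 4 (0.0521 to 0.0772). Tlr7 (-1.28 ± 0.38, adjusted p = 0.0485) was lost without any one of 10 arrays, namely BALB-RAG OVA replicates 1 to 3, BALB-RAG PBS replicates 1, 2 and 4, BALB/c OVA replicates 1 and 2, and BALB/c PBS replicates 3 and 4 (0.0643 to 0.102). The higher response was that of Clec14a (1.05 ± 0.28, adjusted p = 0.0321), with a difference of 0.00 ± 0.20 in BALB-RAG. It was lost without BALB-RAG OVA replicate 2, 3 or 4, BALB-RAG PBS replicate 2 or 3, BALB/c OVA replicate 1 or 2, or BALB/c PBS replicate 2, 3 or 4 (0.05 to 0.0733).

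The number of receptor genes that passed this comparison of responses was 11 and fell to 4 without BALB/c OVA replicate 2. It was 5 without BALB/c OVA replicate 1, and 6 without BALB/c PBS replicate 3, BALB/c PBS replicate 4 or BALB-RAG PBS replicate 2. Without BALB-RAG OVA replicate 2, the library of that group with the highest plasma cell mean (8.61), it was 8. The BALB-RAG PBS libraries, with plasma cell means of 7.35 to 8.39, stayed in that fit.

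Between the lines after OVA, 24 of the 47 genes were lower in BALB-RAG and 2 were higher, against 12.1% and 11.6% of all genes. Clec5a, Klra7 and Klrc1 exceeded log2 4 on BALB/c arrays alone, and Trem2 and Klrg1 nearly so. These genes entered the test because of those arrays. The groups did not overlap, with BALB-RAG lower, for 23 of the 47 genes (48.9%), against 13.6% of all genes. Of the 19 risers in BALB/c, 16 were lower in BALB-RAG OVA lungs. Clec10a, Clec4n and Nlrx1 were the 3 that did not pass, with Clec4n at 8.08, 6.35, 7.7 and 7.43 in BALB-RAG OVA lungs. The BALB/c response and this comparison share the BALB/c OVA arrays. Trem2 was at least 6.60-fold lower in BALB-RAG, with all 4 arrays at 3.59 to 3.85. Clec7a differed by -2.79 ± 0.25 (adjusted p = 2.26e-06), Fcgr2b by -2.50 ± 0.29 (adjusted p = 1.68e-05) and Fcgr1 by -2.60 ± 0.44 (adjusted p = 0.000457).

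A further 8 genes were lower in BALB-RAG after OVA without having passed for OVA in BALB/c. These were Clec11a, Fcgr4, Klra8, Klrb1b, Klrc1, Lgals9, Tlr2 and Tlr4. Clec11a read 4.47, 3.31, 3.89 and 4.56 in BALB-RAG OVA lungs, against 5.74, 6.07, 5.02 and 5.31 in BALB/c OVA lungs (-1.47 ± 0.27, adjusted p = 0.000787). Of the 8, the calls of Clec11a, Klra8 and Klrc1 held without any one array. Fcgr4 (-2.35 ± 0.66, adjusted p = 0.0158) was lost without BALB-RAG OVA replicate 4 or BALB/c OVA replicate 1 or 2 (0.0516 to 0.0595).

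Tlr2 (-0.83 ± 0.24, adjusted p = 0.0169) was lost without BALB-RAG OVA replicate 2 or BALB/c OVA replicate 1 (0.0576 to 0.0581). Tlr4 (-0.52 ± 0.17, adjusted p = 0.0378) was lost without replicate 1, 2 or 4 of either OVA group (0.052 to 0.137). Lgals9 (-0.88 ± 0.28, adjusted p = 0.0328) was lost without BALB-RAG OVA replicate 1 or 4 or BALB/c OVA replicate 1 or 2 (0.0536 to 0.119). Klrb1b (-0.97 ± 0.29, adjusted p = 0.024) was lost without BALB-RAG OVA replicate 1 or BALB/c OVA replicate 1 or 4 (0.076 to 0.0826). These were the smaller or more variable differences of the set.

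The 2 genes that were higher in BALB-RAG after OVA were Clec14a (1.20 ± 0.20, adjusted p = 0.000416) and Lgalsl. Lgalsl read 9.1, 8.72, 9.24 and 9.49 in BALB-RAG OVA lungs, against 7.96, 8.1, 8.63 and 8.57 in BALB/c OVA lungs (0.82 ± 0.24, adjusted p = 0.0199). It was lost without BALB-RAG OVA replicate 4 or BALB/c OVA replicate 1 or 2 (0.063 to 0.0712).

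NK receptors were among the genes that differed most between lines after OVA, with 5 of 6 lower in BALB-RAG, against 12.1% of all genes. Klra7 and Klrc1 exceeded log2 4 on BALB/c arrays alone, and Klrg1 nearly so. These genes entered the test because they were high in BALB/c, so the count is not independent of the filter. Klrc1 read 3.43, 3.45, 3.57 and 3.67 in BALB-RAG OVA lungs, against 5.35, 4.49, 5.8 and 6.74 in BALB/c OVA lungs (at least 3.02-fold lower, adjusted p = 0.000479). Klra7 read 2.31, 2.64, 2.76 and 2.52 in BALB-RAG OVA lungs (at least 2.61-fold lower than in BALB/c OVA lungs, adjusted p = 0.000639). Klrg1 was at least 3.99-fold lower (adjusted p = 0.000115), and Klra8 differed by -2.25 ± 0.50 (adjusted p = 0.00367). Klrc1 and Klra7 were thus under log2 4 on every BALB-RAG array. Klra2 was the exception, with a difference of -0.22.

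Most of the other genes taken as NK cell markers were also lower in BALB-RAG after OVA. The mean of Ncr1, Gzma, Gzmb, Il2rb and Ccl5 was 4.51 to 5.01 in BALB-RAG OVA, 4.15 to 4.77 in BALB-RAG PBS, 5.9 to 7.39 in BALB/c OVA and 4.75 to 6.45 in BALB/c PBS libraries. Of these 5 genes 4 were lower in BALB-RAG after OVA and 1 after PBS, and their part in the receptor results was not tested. The defining NK gene Ncr1 averaged 3.93 in BALB-RAG OVA, 3.31 in BALB-RAG PBS, 4.36 in BALB/c OVA and 3.7 in BALB/c PBS libraries, close to background in every group. Ncr1 did not pass between the lines after OVA (limma, -0.43 ± 0.39, adjusted p = 0.491) or after PBS (-0.39 ± 0.39, adjusted p = 0.738).

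After PBS, 2 of the 47 receptor genes passed between the lines. Mrc2 was higher in BALB-RAG and Tlr4 was lower, against 1.97% and 1.94% of all genes. The number that passed was 5 with a term for replicates 1 and 2 against 3 and 4 (2 higher and 3 lower), 5 with replicates 1 and 2 alone (all lower) and 0 with replicates 3 and 4 alone. Mrc2 read 7.92, 8.25, 8.33 and 7.91 in BALB-RAG PBS lungs, against 7.38, 7.33, 7.21 and 7.66 in BALB/c PBS lungs (0.71 ± 0.17, adjusted p = 0.0255). Tlr4 read 6.18, 6.3, 6.41 and 6.76, against 7.13, 7.33, 7.0 and 7.17 in BALB/c PBS lungs (-0.74 ± 0.17, adjusted p = 0.0235). Neither pair of groups overlapped; over the 47 genes, 4 were lower in BALB-RAG without overlap (8.51%), against 5.44% of all genes. A second Tlr4 probe set had -0.63.

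Both calls were lost when any 1 of several arrays was left out. Mrc2 was lost without BALB-RAG PBS replicate 2 or 3 or BALB/c PBS replicate 1, 2 or 3 (adjusted p 0.0515 to 0.0777), and Tlr4 without BALB-RAG PBS replicate 1 or 2 or BALB/c PBS replicate 1, 2 or 4 (0.052 to 0.0788). The number that passed was 0 without BALB-RAG PBS replicate 2, BALB/c PBS replicate 1 or BALB/c PBS replicate 2. It was 1 without BALB-RAG PBS replicate 1, BALB-RAG PBS replicate 3 or BALB/c PBS replicate 3. Klrc1 was under log2 4 on all BALB-RAG PBS arrays and at 4.4 to 5.51 in BALB/c PBS lungs (-1.22 ± 0.35, adjusted p = 0.067).

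Several lists of cell type markers, though not all, moved in the same comparison as the receptor genes. Among all genes 8.73% rose and 6.78% fell after OVA in BALB/c. Of 11 macrophage and monocyte genes 9 rose after OVA in BALB/c, and their mean was 9.37 to 10.28 in BALB/c OVA and 7.45 to 8.58 in BALB/c PBS libraries. In BALB-RAG none of the 11 passed, at 7.92 to 8.31 in OVA and 7.42 to 8.19 in PBS libraries. Of 13 genes listed for dendritic cells 11 rose in BALB/c, with means of 8.41 to 9.06 in BALB/c OVA and 7.0 to 7.45 in BALB/c PBS libraries. In BALB-RAG their means were 6.37 to 7.11 in OVA and 6.32 to 6.68 in PBS libraries. That list was drawn up with genes such as H2-Aa and Cd74, which B cells and macrophages also express, so it does not separate dendritic cells from them. After OVA in BALB/c, 8 of 13 T cell genes (median 1.20), 3 of 6 plasma cell genes (median 1.31) and 5 of 6 proliferation genes (median 2.62) also rose, and none of these fell. The mean of the T cell genes was 4.94 to 6.39 in BALB/c OVA and 4.22 to 4.61 in BALB/c PBS libraries, and that of the proliferation genes was 6.44 to 7.72 in BALB/c OVA and 4.72 to 5.29 in BALB/c PBS libraries. For OVA in BALB-RAG none of the 13 T cell genes passed (median -0.43), and 1 of 6 proliferation genes fell (median -1.45). Alveolar macrophage genes went both ways (3 of 10 rose and 2 fell, median -0.49), and 1 of 7 neutrophil genes rose (median -0.40). The part of these cell types in the receptor results was not tested.

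Genes of the pathways of these receptors were counted from 2 lists, and not all of them act downstream. The Toll-like and NOD-like list also holds the co-receptor Cd14 and the sensors Aim2, Naip5 and Naip6. The tyrosine-motif list also holds Zap70 and Cd247, which are T cell markers too. Among all genes 8.73% rose and 6.78% fell after OVA in BALB/c. Of 20 genes of tyrosine-motif signalling, 10 rose and none fell after OVA in BALB/c (median 1.01). Lat2, an adaptor of myeloid and B cells, differed by 2.07 ± 0.25 (adjusted p = 5.03e-05) and the kinase Syk by 1.32 ± 0.21 (adjusted p = 0.000487). Btk, the kinase of B and myeloid cells, differed by 1.72 ± 0.23 (adjusted p = 0.000118). None of the 20 passed for OVA in BALB-RAG, 8 had a lower response there, and 15 were lower in BALB-RAG after OVA.

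Of 21 genes of Toll-like and NOD-like signalling, 8 rose and 1 fell in BALB/c (median 0.34), and none passed in BALB-RAG. The inflammasome adaptor Pycard differed by 2.19 ± 0.51 (adjusted p = 0.00777) and the shared adaptor Myd88 by 0.45 ± 0.13 (adjusted p = 0.0296). The cytokine gene Il18 fell (-1.47 ± 0.27, adjusted p = 0.00134). The lipopolysaccharide co-receptor Cd14 differed by 1.09 ± 0.28 in BALB-RAG (adjusted p = 0.161) and rose by 1.02 ± 0.28 in BALB/c (adjusted p = 0.0196). Of 11 other pattern and scavenger receptors, 2 rose and 1 fell in BALB/c, and of 7 ligands and partner molecules 4 rose.

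Many of the 64 genes are neighbours in the genome: 22 lie on chromosome 6, which in the mouse holds the NK gene complex and a cluster of myeloid C-type lectins. Of the 15 tested genes there, 7 rose in BALB/c, and of the 32 tested genes elsewhere 12 rose. Clec4b1, Clec4a2, Clec4n and Clec4d follow each other with at most 1 gene between them. Their OVA differences in BALB/c were 1.44, 3.05, 1.83 and 0.27. Those of Siglecf and Siglecg on chromosome 7 were 0.64 ± 0.34 and 1.03 ± 0.24, and those of Fcgr2b and Fcgr4 on chromosome 1 were 2.40 ± 0.29 and 1.44 ± 0.66. Whether neighbours differed in response was not tested.

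Of the 47 tested genes, 30 passed in at least 1 of the 5 comparisons and 17 in none. Those 17 were Clec1b, Clec2d, Clec2i, Clec4d, Fcer1g, Fcgrt, Klra2, Lgals1, Lgals12, Lgals2, Lgals8, Nlrp3, Pilra, Pilrb1, Siglecf, Tlr3 and Tlr9. The share of all genes that passed in at least 1 comparison was not counted. In single comparisons between 0.165% and 23.8% of all genes passed, so the 30 cannot be set against all genes. A further 17 of the 64 genes were not above background on enough arrays to be tested: Clec2h, Clec2l, Clec4g, Fcer1a, Klra16, Klra17, Klra5, Klrb1f, Klrc3, Lgals7, Nlrp4b, Nlrp5, Nlrp6, Siglec1, Siglece, Siglech and Tlr6. Most stayed under log2 4 on all arrays, but Klra17 read 4.86 and 5.31 on 2 of the BALB-RAG OVA arrays, and Lgals7 read 6.05 and 5.81 on 1 array of each BALB-RAG group. The 49 genes with no assigned values, Mrc1, Marco, Fcgr3 and Klrk1 among them, were not analysed here.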

How the data were processed

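Whole lung RNA of 16 mouse samples was hybridised to Affymetrix arrays, 1 per sample. The labels' protocols give TRIZOL extraction and biotinylated cRNA from 6 µg of RNA. The deposited unit is intensity, linear rather than log, computed by the authors with GCRMA per the submitters' processing notes (version not given in the sources used here). Log2 was taken and no further normalisation applied.

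Of 45101 probe set labels, 14300 in 3 stretches were realigned to other rows (64 above, 47 below and 16168 below), and other labels were dropped. Probe sets of 1 gene, both above log2 6, then had a median correlation across arrays of 0.634 (1696 pairs), against 0.115 as deposited (856 pairs). An earlier description of the second stretch placed its values 47 rows above; there the median was 0.0272 (440 pairs), against 0.618 (637 pairs) 47 rows below, so 47 rows below was used, after seeing these data. No document of the submitters describes the shift, and every gene name depends on it. Symbols came from the platform annotation: of the realigned labels 13146 had 1 symbol, 366 several and 788 none. Identifiers of all 64 genes matched RefSeq, with 0 symbols changed. Probe sets with several symbols, 5 of 90 for these families, were not used.

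Each gene was represented by its probe set of highest mean. A limma 3.58.1 model (R 4.3.3) with the means of the 4 groups over 16 arrays was moderated by empirical Bayes. The 5 comparisons (OVA response in BALB-RAG, in BALB/c, and BALB-RAG minus BALB/c; lines after OVA and after PBS) were adjusted by Benjamini-Hochberg at 0.05 over 7276 genes. A fold is written "at least" if the lower group lay wholly under log2 4, its values then being raised to 4. On simulated data for the BALB/c comparison (7276 genes), 71% of changes of log2 1 and 96% of log2 2 were recovered.

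The members and lists were chosen with earlier results of these data known. The naming rule took the 8 largest rises and falls past the threshold in each comparison and all members of counts of 5 or fewer. From each family it also took up to 5 genes with the smallest p and the 2 with the highest mean level. It gave 39 of the 47 genes, and the other 8 are named to account for every member. Genes named from the other lists are examples and not always those with the smallest p. Same-numbered BALB/c OVA and PBS arrays had correlated deviations from their group means (0.304 to 0.456), but so had different numbers within replicates 1 and 2 or 3 and 4, and in BALB-RAG the correlation was 0.025 for replicate 2. Alternatives changed the background filter, normalisation, probe set rule, variance model, replicate block and arrays included.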

Additional observations from a re-analysis of the deposited data

Results flagged for a closer look

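The OVA response differed between the lines, by a test of the difference itself, for 11 of the 47 receptor genes. The BALB-RAG minus BALB/c differences (log2) were -3.19 for Trem2, -2.56 for Clec4a2, -2.56 for Clec7a, -2.29 for Klrg1, -2.13 for Fcer2a, -1.62 for Fcgr2b, -1.43 for Clec4b1, -1.28 for Tlr7, -0.89 for Mrc2, -0.82 for Sirpa and 1.05 for Clec14a. In BALB-RAG the OVA difference of Mrc2 was -0.73 while in BALB/c it was 0.16; the other 9 negative ones were rises in BALB/c. Trem2, Klrg1 and Fcer2a lay under or near log2 4 in some groups, and with values under 4 set to 4 their differences were -2.92, -1.57 and -1.96.

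Single arrays lay far from the other 3 of their group in 9 of 178 groups of 4 examined by Dixon's test, where chance flags about 1 in 20. In BALB-RAG OVA, replicate 4 was lowest for Clec1b (5.52, others 6.0 to 6.1) and Lgals12 (3.41, others 3.97 to 4.07), replicate 3 highest for Lgals8 (9.39, others 9.07 to 9.11) and replicate 2 lowest for Tlr2 (6.54, others 7.19 to 7.32). In BALB-RAG PBS, replicate 3 was lowest for Fcgr2b (6.2, others 7.29 to 7.4) and replicate 2 highest for Pilrb1 (6.45, others 5.52 to 5.6). In BALB/c OVA, replicate 1 was highest for Lgals9 (10.45, others 9.65 to 9.78), and replicate 3 was lowest for Siglecg (4.95, others 5.91 to 5.97) and highest for Tlr3 (7.82, others 7.06 to 7.18).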

How the results depend on the processing

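The numbers of receptor genes that passed were 0 for OVA in BALB-RAG, 20 for OVA in BALB/c, 11 for the difference of responses, 26 between lines after OVA and 2 after PBS. Leaving out each array gave ranges of 0 to 0, 18 to 20, 4 to 13, 19 to 28 and 0 to 3. With a filter at log2 6 the counts were 10 (BALB/c), 7 (difference of responses) and 14 (lines after OVA). That filter left fewer genes to test, and no gene still tested lost a call. A term for replicates 1 and 2 against 3 and 4 gave 1 gene in BALB-RAG and 5 between lines after PBS. Over all comparisons that term added 17 calls of single genes and ended none. Replicates 1 and 2 alone gave 5 between lines after PBS, and replicates 3 and 4 alone gave 6 for the difference of responses, 16 between lines after OVA and 0 after PBS. With replicates 1 and 2 alone the BALB/c differences turned to -0.20 for Klra7 and -0.91 for Klra8. With second-stretch labels 47 rows above, chosen after seeing the data, counts were 13 (BALB/c), 6 (difference of responses) and 14 (lines after OVA); single genes were not compared there, because those values correlate poorly within genes. The cause of these shifts was not tested. The stricter filter and the subsets also used fewer genes or arrays. The replicate block gave 0, 23, 15, 30 and 2, and added 11 calls of single genes while ending none. Using only the groups of a comparison gives no value for the difference of responses. Array number and signal near log2 4 limit dim genes such as Trem2, Klra7 and Clec5a.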
